A study of Mus musculus with 4 samples.

Results

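The genes described here are 10 genes of the lysosome: the cysteine cathepsins Ctsb, Ctsl, Ctss and Ctsz, the aspartic cathepsin Ctsd, the asparaginyl endopeptidase Lgmn, and the lysosome membrane genes Lamp1, Lamp2, Cd63 and Cd68. They were chosen by symbol, with earlier results of these data known, and all 10 were found among the 32285 genes of the deposited tables. Lysosomes break down protein, lipid and debris taken up from outside or delivered from inside the cell. Cathepsins are the proteases of this compartment and are made as inactive precursors that mature at acid pH, while heavily glycosylated membrane proteins line the inner face of its wall. Microglia, the resident phagocytes of the brain, carry many lysosomes, and their lysosomal genes are known to be more active around damaged tissue.

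The libraries were single-cell RNA-seq of brain tissue from C57BL/6N males, 10 months old. One group had sham surgery and an isotype control antibody. The other groups had a stroke and received the isotype control, an antibody to VCAM1 (anti-VCAM1) or an antibody to VLA4 (anti-VLA4). Every group had its antibody for 10 weeks. Stroke was made by dMCAO, distal occlusion of the middle cerebral artery, and the infarct core with about 2 mm of cortex around it was taken. VCAM1 is an adhesion molecule of activated endothelium, and VLA4 is the leukocyte integrin that binds it. Each group was 1 library from pooled tissue of 4 to 5 mice, and the labels name no transgene. There was therefore no replicate: each difference is between 2 libraries, no test was possible, and every 95% interval covers counting error only.

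The promoters are shown first, because the CACGTG motif bound by transcription factors of the lysosomal gene programme, such as TFEB and TFE3, sits unevenly among the 10 genes. RefSeq promoter windows on GRCm38.p6, from 250 bases before to 50 after the start site, were matched for 9 of the 10. No window was matched for Ctsb, so nothing is said here about its promoter. The motif CACGTG, which reads the same on both strands, was in the windows of Ctsd, Ctsl, Lamp1 and 1 of the 2 windows of Lgmn, against 7.15% of all 32851 windows. It was not in the windows of Ctss, Ctsz, Cd63, Cd68 and Lamp2. Lamp1 had 4 copies between the bases 61 and 10 before the start, and Ctsd had 2, of which the one closer to the start lies within the longer TCACGTGA, found in 0.974% of windows. The stretches below are 5′ to 3′ on the gene's strand with the motif in capitals, and no binding was measured.
Lamp1, chr8:13159080-13159160, plus strand: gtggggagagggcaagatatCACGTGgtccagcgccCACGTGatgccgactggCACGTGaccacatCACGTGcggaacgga
Ctsd, chr7:142387893-142387952, minus strand: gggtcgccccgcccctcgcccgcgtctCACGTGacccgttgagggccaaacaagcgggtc
Ctsl, chr13:64370731-64370770, minus strand: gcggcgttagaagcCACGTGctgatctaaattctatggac
Lgmn, chr12:102439116-102439161, minus strand: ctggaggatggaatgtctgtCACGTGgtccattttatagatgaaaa

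Values are given in the order sham isotype, stroke isotype, anti-VCAM1, anti-VLA4 unless stated. The libraries kept 1514, 2832, 4657 and 6209 cells after filtering, with a median of 4515 to 5456.5 UMIs per cell. A UMI marks 1 captured transcript end, so counts do not scale with transcript length, and levels are given as CPM, UMIs scaled to a common class total of 1000000. Cells were classed by marker genes into microglia-like cells (689, 1465, 1797 and 2429), endothelial-like cells (421, 517, 1951 and 2529), border-macrophage-like cells (38, 65, 24 and 43), T-cell-like cells (73, 248, 110 and 201) and smaller classes. All 8 microglia markers were detected in each microglia cluster and all 8 endothelial markers in each endothelial cluster. The sham and stroke-isotype libraries shared 59 cell barcodes, and in 54 of these the stroke copy held under 10% of the UMIs of the sham copy; other library pairs shared 1 to 8. Without those shared barcodes no member ratio in microglia-like cells moved by as much as 0.05.

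The members were concentrated in the myeloid cells, and microglia-like cells spent 1.25%, 1.37%, 1.42% and 1.43% of their UMIs on the 10 genes. Endothelial-like cells spent 0.0811%, 0.109%, 0.102% and 0.102%. In microglia-like cells Ctss and Ctsd together made up 52.8% to 54.1% of all member UMIs.

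**Figure D1:**
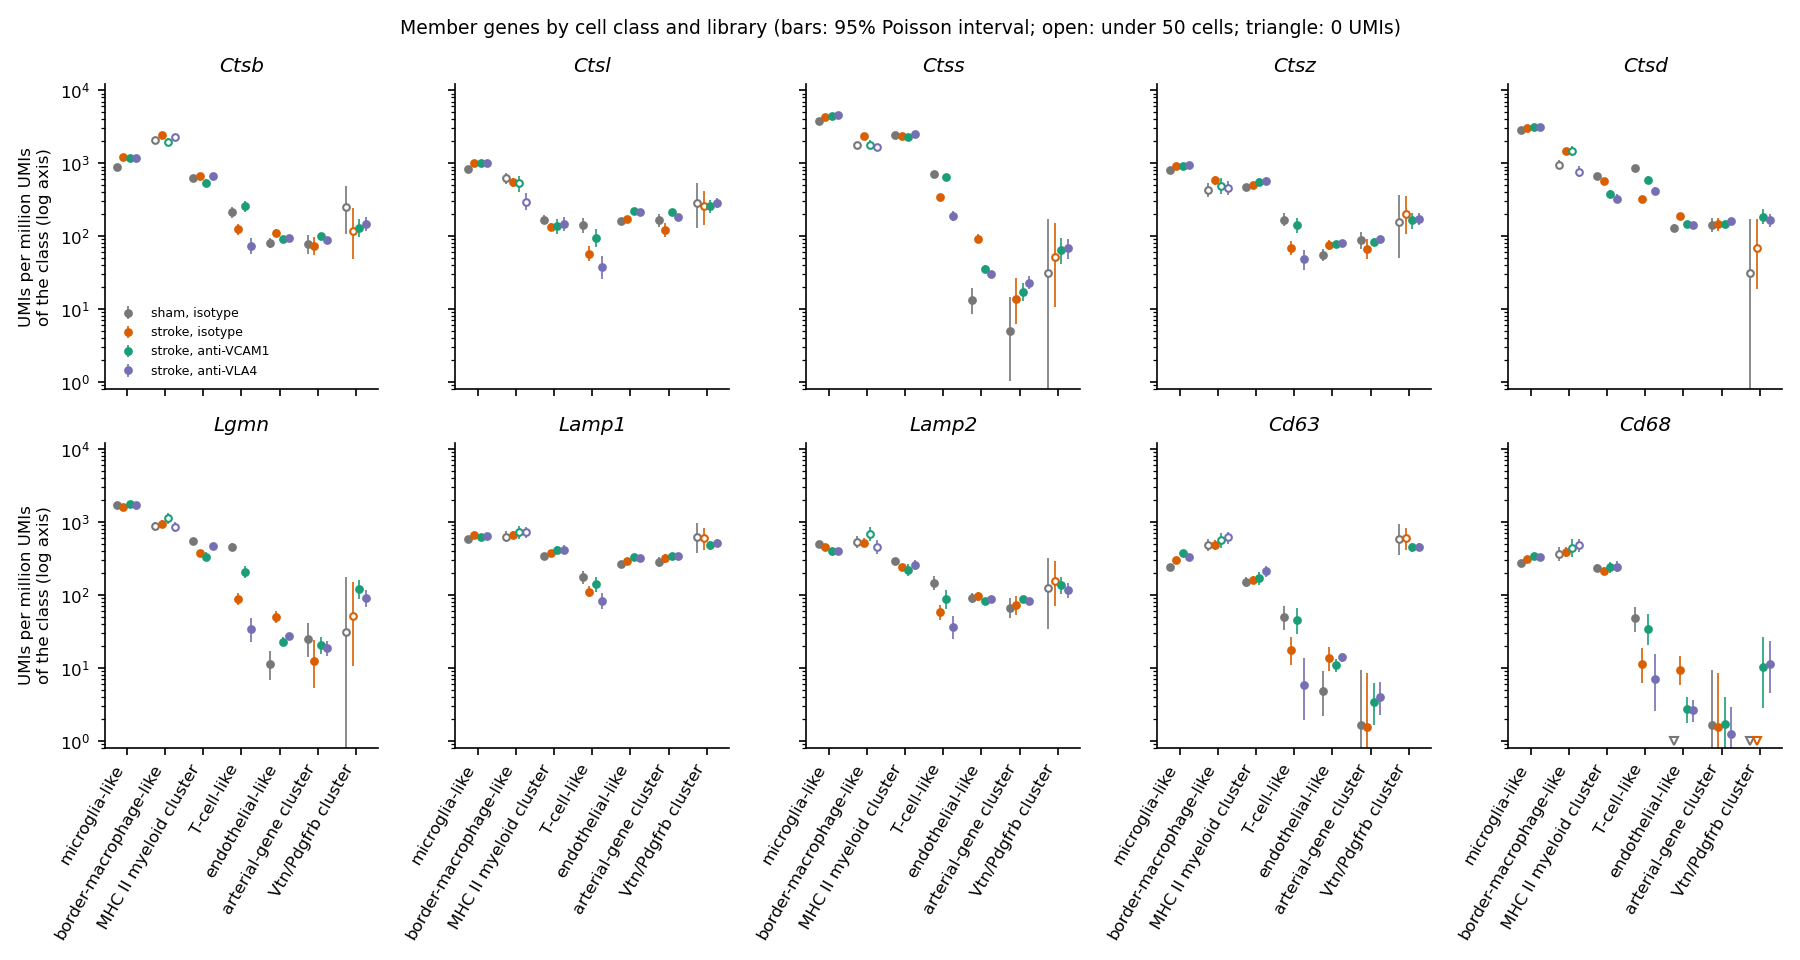
Level of each member in CPM (log axis) in 7 cell classes or clusters, 1 point per library with its 95% Poisson interval. Ctss spans from at least 3815 in microglia-like cells to at most 92.1 in endothelial-like cells, whereas Lamp1 stays between 267 and 664 in both and in border-macrophage-like cells of the stroke-isotype library.

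Ctss (ENSMUSG00000038642), a cysteine cathepsin that stays active near neutral pH and trims the invariant chain of MHC class II, was the most abundant member in microglia-like cells. Its level there was 3815 CPM in sham, 4263 in stroke with isotype, 4477 in anti-VCAM1 and 4586 in anti-VLA4. The unnamed cluster led by MHC class II genes (H2-Eb1, H2-Ab1, Cd74) held 2313 to 2521 CPM, an unnamed low-UMI cluster led by Gpx1 and Apoe 2487 and 2582 CPM in the blockade libraries, and border-macrophage-like cells 2344 CPM in the stroke-isotype library, the only one with at least 50 of them. The first overlapped each of the others, which did not overlap one another, and all lay below every microglia value.

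Ctsb (ENSMUSG00000021939), a cysteine cathepsin of broad specificity, had another order. Border-macrophage-like cells held the most, with 2092, 2471, 1946 and 2310 CPM in the 4 libraries, and microglia-like cells held 880 CPM in sham, 1233 in stroke with isotype, 1167 in anti-VCAM1 and 1181 in anti-VLA4. The lowest border-macrophage value was above the highest microglia value, although 3 of the 4 rested on fewer than 50 cells. Endothelial-like cells held 80.0 to 111 CPM and the unnamed arterial-gene cluster 73.6 to 99.1 CPM, which overlap.

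Ctsl (ENSMUSG00000021477), a cysteine endopeptidase, and Ctsz (ENSMUSG00000016256), a cysteine carboxypeptidase, were next. Ctsl in microglia-like cells was 845, 1005, 993 and 1000 CPM, and in endothelial-like cells 160, 169, 223 and 216 CPM. Ctsl was the cathepsin with the smallest microglia-to-endothelium gap, 4.45- to 5.94-fold over the 4 libraries. Ctsz in microglia-like cells was 810, 926, 920 and 936 CPM, 11.6- to 14.5-fold above endothelial-like cells.

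Ctsd (ENSMUSG00000007891), the aspartic protease that starts the breakdown of many lysosomal substrates, was 2809, 2993, 3094 and 3133 CPM in microglia-like cells. It was 15.9- to 21.8-fold lower in endothelial-like cells. Lgmn (ENSMUSG00000021190), which cuts after asparagine and processes other cathepsins, was 1720, 1585, 1759 and 1718 CPM in microglia-like cells. For both genes the border-macrophage-like cells of the stroke-isotype library were lower, at 1483 CPM for Ctsd and 945 CPM for Lgmn.

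Among the membrane genes, Lamp1 and Lamp2 were spread more evenly than Cd63 and Cd68. Lamp1 (ENSMUSG00000031447), a main glycoprotein of the lysosomal membrane, was 574, 656, 630 and 642 CPM in microglia-like cells and 267, 291, 328 and 322 CPM in endothelial-like cells, a gap of only 1.92- to 2.26-fold. Lamp2 (ENSMUSG00000016534), whose isoforms serve membrane protection and chaperone-mediated autophagy and are counted here as 1 gene, was 494, 454, 405 and 394 CPM in microglia-like cells. Its level in endothelial-like cells was 83.1 to 95.3 CPM.

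Cd63 (ENSMUSG00000025351), a tetraspanin of late endosomes and exosomes, was 244, 303, 369 and 334 CPM in microglia-like cells. It was higher outside the microglia, at 480 to 611 CPM in border-macrophage-like cells and 450 to 595 CPM in an unnamed cluster of 10, 13, 55 and 91 cells led by Vtn, Kcnj8 and Pdgfrb. That cluster also held 480 to 622 CPM of Lamp1 but at most 11.3 CPM of Cd68. Cd68 (ENSMUSG00000018774), a scavenger receptor family member of phagocyte lysosomes, was 271, 311, 337 and 335 CPM in microglia-like cells and 365 to 478 CPM in border-macrophage-like cells.

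Free RNA from broken microglia, or a microglia in the same droplet, can give member UMIs to other cells, so 7 microglia genes (P2ry12, Cx3cr1, C1qa, C1qb, C1qc, Tmem119, Csf1r) were measured beside them. In endothelial-like cells these 7 had a median of 0.371%, 2.76%, 0.80% and 0.794% of their microglia level. Ctss was at 0.345%, 2.16%, 0.797% and 0.662% of its own microglia level. This was within the range of those genes in sham and anti-VCAM1. In stroke with isotype and in anti-VLA4 it was just below the lowest of them, at 2.45% and 0.699%. Cd68 (0%, 3.02%, 0.807% and 0.782%) was within their range in every stroke library. Lgmn stood at 0.643%, 3.10%, 1.3% and 1.59%, beside 0.507%, 3.11%, 0.972% and 1.06% for the highest of the 7 genes. It was thus above all 7 in sham and in both blockade libraries, and within their range in stroke with isotype. Cd68 had no UMI in the 421 sham endothelial-like cells, against 1389 UMIs in microglia-like cells, which puts it at least 172-fold lower at a floor of 3 UMIs. The other members stood further above: Lamp1 at 44.3% to 52.1%, Ctsl at 16.8% to 22.5%, Lamp2 at 18.2% to 22.3%, Ctsb at 7.83% to 9.09%, Ctsz at 6.89% to 8.64% and Ctsd at 4.58% to 6.28%.

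**Figure D2:**
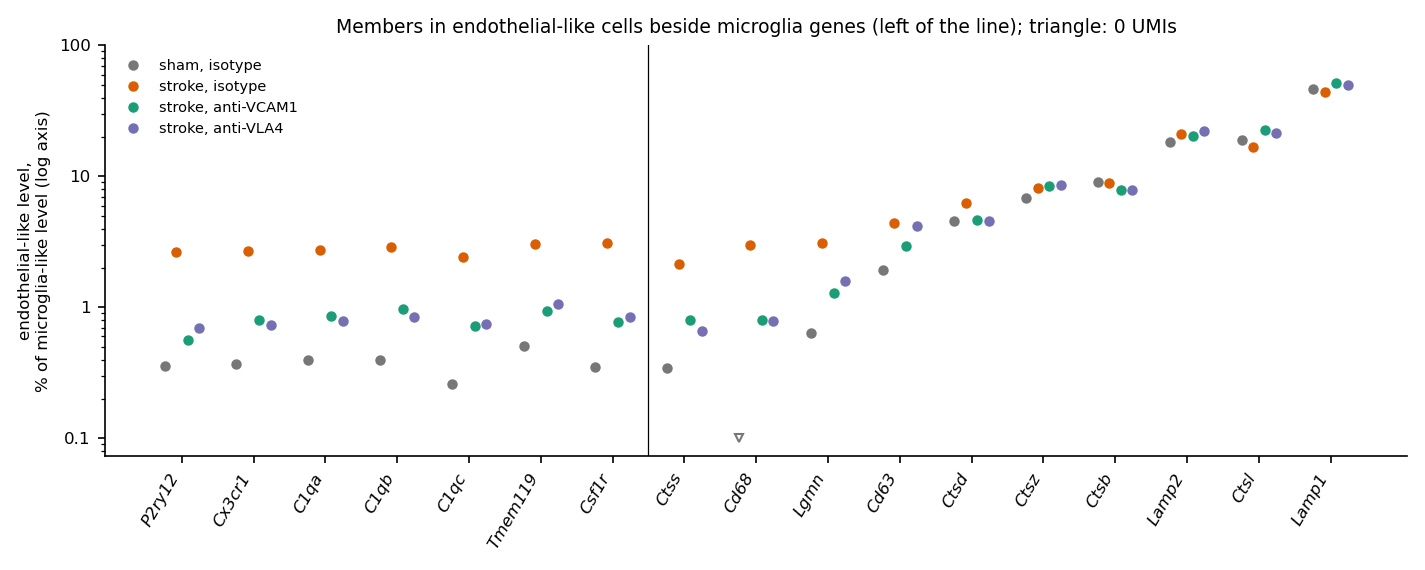
Level in endothelial-like cells as a percentage of the level in microglia-like cells of the same library (log axis), for 7 microglia genes and the 10 members, 1 point per library. Ctss and Cd68 lie within or below the range of the microglia genes, whose median is 0.371% to 2.76%, while Lamp1 lies near 50%.

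Cd63 in endothelial-like cells was low, at 4.74, 13.4, 10.8 and 13.9 CPM. In the blockade libraries 1 cluster, with 2, 8, 121 and 179 cells, held 49 of 99 and 98 of 181 Cd63 UMIs, at 64.3 and 81.0 CPM against at most 12 CPM in the other endothelial clusters of those libraries. In it, the pericyte markers summed to 3586 and 3785 CPM, against 174 to 355 CPM and 141 to 465 CPM in the other endothelial clusters of those 2 libraries. In sham this cluster held 0 of 9 Cd63 UMIs, and in stroke with isotype 5 of 30. There another endothelial cluster held 10, at 41.3 CPM, with 678 CPM of microglia markers. The part of pericyte or microglia transcripts in the Cd63 level was not tested.

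The first comparison asks how stroke tissue differed from sham tissue when both received the isotype antibody. In microglia-like cells Ctsb was the member that differed most: its log2 ratio of stroke over sham was 0.49 (interval 0.44 to 0.54), or 1.4-fold. The sham library was lowest of the 4 and the 3 stroke libraries lay within 1167 to 1233 CPM. It was the only 1 of the 10 members at least 1.3-fold higher, against 2.24% of the 7561 genes with at least 200 UMIs over both libraries, and 0 of 10 were at least 1.3-fold lower, against 3.88%.

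Among the cysteine cathepsins the other ratios were 0.25 for Ctsl, 0.19 for Ctsz and 0.16 for Ctss. Ctsd stood at 0.09. Cd63 reached 0.31 (0.22 to 0.41), and Cd68 and Lamp1 were at 0.20 and 0.19. Lgmn and Lamp2 went the other way, both at -0.12. The intervals of 8 members lay above 0 and those of Lgmn and Lamp2 below it. The median over the 10 members was 0.19, and over all genes tested -0.04.

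**Figure D3:**
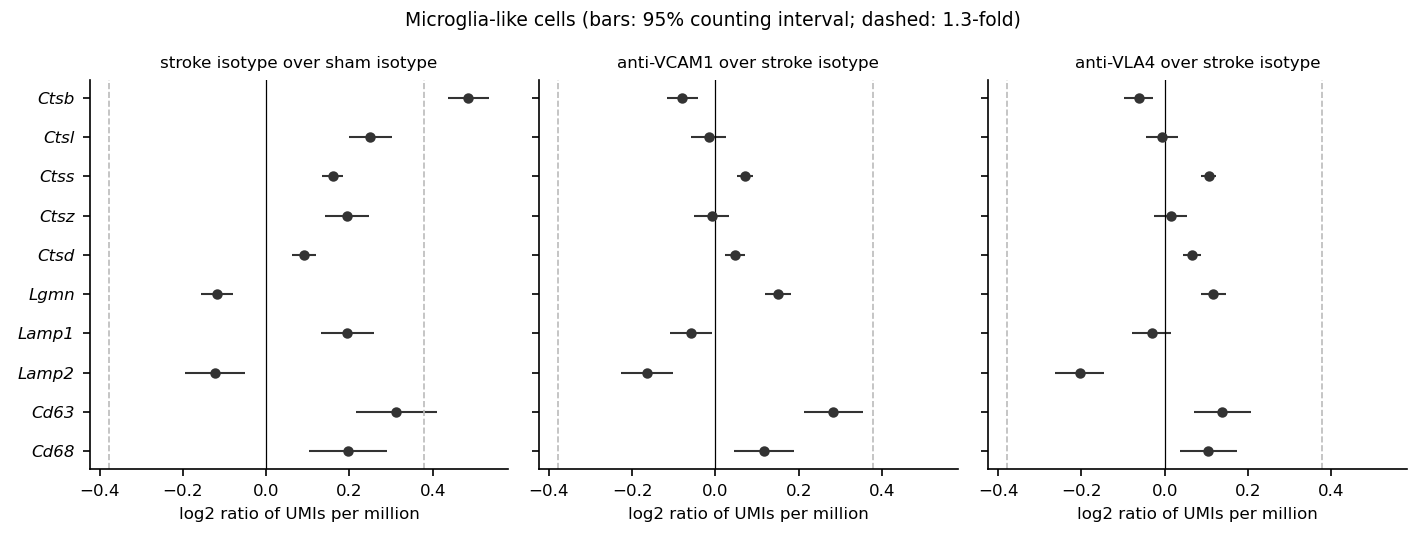
Log2 ratio of each member in microglia-like cells for the 3 comparisons, with 95% counting intervals and dashed lines at 1.3-fold. Ctsb in the stroke comparison is the only point beyond the dashed lines, and Lgmn and Lamp2 lie on the negative side there.

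Microglia-like cells were 8 clusters, clustered without the lysosomal genes, and the members differed more between them than between libraries. A cluster led by Hcar2, Gpr84, Trem2 and Cst7 had the highest median over libraries for 8 of the 10 members, among them 2316 CPM of Ctsb, 5001 CPM of Ctsd, 6262 CPM of Ctss and 931 CPM of Cd63. Within each of the 3 stroke libraries Cd63 was 3.27- to 3.77-fold, Ctsb 1.94- to 2.28-fold and Ctsl 1.84- to 2.02-fold the level of the other microglia-like cells. Lgmn was lower there in all 3, at 0.845- to 0.876-fold, and Lamp2 was at 0.878- to 1.11-fold. Trem2 is a lipid receptor of microglia around damage, and Cst7 encodes cystatin F, an inhibitor of lysosomal cysteine proteases.

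That cluster held 9 of 689, 82 of 1465, 119 of 1797 and 178 of 2429 microglia-like cells, or 1.31%, 5.60%, 6.62% and 7.33%. Leaving it out moved the stroke ratio of Cd63 from 0.31 to 0.10 and that of Ctsl from 0.25 to 0.16, while Ctsb went from 0.49 to 0.42. With cluster shares held at those of the sham library Ctsb was at 0.38 and Cd63 at 0.05. Ctsb was also higher in stroke within each of the 4 microglia clusters with enough cells in both libraries, by 0.29 to 0.53 on the log2 scale. Cd63 within those clusters was between -0.09 and 0.15.

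At the other end were 2 clusters with medians of 2460 and 2079 UMIs per cell and 47322 to 61387 CPM of the nuclear RNA Malat1, against 19658 to 34528 CPM in the 5 other clusters of over 300 cells. In them Ctss was 0.297- to 0.369-fold, Ctsd 0.414- to 0.493-fold and Cd63 0.184- to 0.284-fold the level of the other microglia-like cells over the 4 libraries. Lamp2 was at 0.982- to 1.18-fold over both clusters together, but these 2 clusters went opposite ways. Among microglia clusters with at least 50 cells in a library, Lamp2 had its highest median in the first, at 561 CPM (481 to 638). Its lowest median was in the second, at 310 CPM (261 to 330). Lgmn was lower in all 4 libraries, at 0.833- to 0.902-fold. Leaving these clusters out left Ctsb at 0.49.

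**Figure D4:**
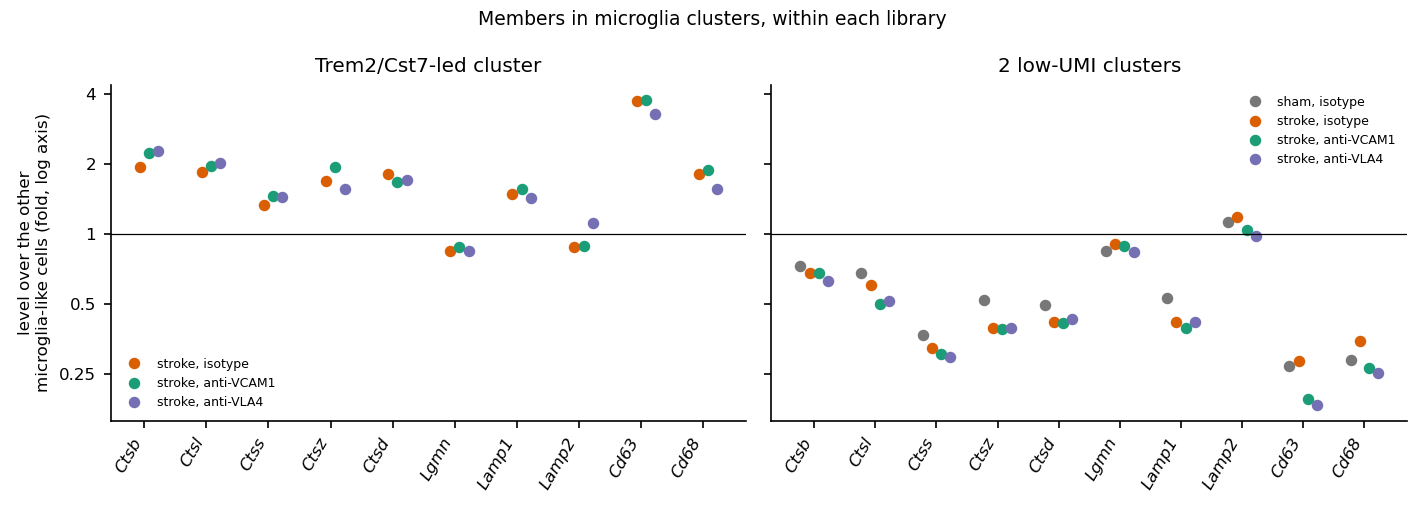
Level of each member in a set of microglia clusters divided by its level in the other microglia-like cells of the same library (log axis), 1 point per library with at least 50 cells in the set. In the Trem2 and Cst7 cluster Cd63 is highest at 3.27 to 3.77, and in the low-UMI clusters Lgmn and Lamp2 stay closest to 1.

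The largest microglia cluster, led by Il1a, made up 41.4%, 33.9%, 20.6% and 14.1% of microglia-like cells. Summed over microglia-like cells, 13 genes of the dissociation stress response were lower in the same order, at 15495, 12758, 10097 and 8458 CPM, and in this cluster they stood at 17435 to 20215 CPM. Without this cluster 3 of the 10 members were at least 1.3-fold higher in stroke instead of 1: Ctsb at 0.50, Cd63 at 0.44 and Cd68 at 0.41, with Ctsl just inside at 0.37. The median over all genes tested also moved, from -0.04 to -0.07. The share of all genes past 1.3-fold is not given for this setting, so the count of 3 has no background beside it. The part of the stress response in the member levels was not tested.

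The 2 blockade comparisons share the stroke-isotype library, so a low or high value in that library moves both. In microglia-like cells no member differed from it by 1.3-fold under either antibody. With anti-VCAM1, 0 of 10 were at least 1.3-fold higher, against 2.34% of 8427 genes, and 0 of 10 lower, against 1.95%. With anti-VLA4, 0 of 10 were higher, against 3.0% of 8839 genes, and 0 of 10 lower, against 3.21%. A count of 0 among 10 genes is near each of these shares. Under anti-VCAM1 the intervals of 5 members lay above 0 and those of 3 below it, and under anti-VLA4 those of 5 above and 2 below. The member medians were 0.02 and 0.04, beside 0.04 and 0.06 over all genes tested.

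The ratios farthest from 0 were those of Cd63 and Lamp2. Cd63 was at 0.28 (0.21 to 0.35) under VCAM1 blockade and 0.14 (0.07 to 0.21) under VLA4 blockade, and Lamp2 at -0.16 (-0.23 to -0.10) and -0.20 (-0.26 to -0.14). With cluster shares held at those of the stroke-isotype library, Cd63 moved to 0.18 and 0.0024 and Lamp2 to -0.08 and -0.07. Lgmn was at 0.15 and 0.12. Lgmn under anti-VCAM1 was above 0 in all 7 clusters with enough cells, by 0.03 to 0.20, and under anti-VLA4 in 5 of 7, from -0.10 to 0.20. Ctsb, the member higher in stroke, was at -0.08 (-0.12 to -0.04) under VCAM1 blockade and -0.06 (-0.10 to -0.03) under VLA4 blockade, a small part of its distance from sham. Ctsl and Ctsz had intervals that hold 0 in both.

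In endothelial-like cells the stroke-isotype library stood apart for the myeloid members. Ctss was 13.2 CPM in sham (25 UMIs), 92.1 in stroke with isotype, 35.7 in anti-VCAM1 and 30.4 in anti-VLA4, and Lgmn was 11.1, 49.2, 22.9 and 27.3 CPM. The 8 microglia markers summed to 32.1, 219, 64.0 and 67.8 CPM in the same cells, highest in the same library and lowest in sham. In that library 10 of the 517 cells held 74.3% of the Ctss, 61.8% of the Lgmn and 38.6% of the Ctsd UMIs.

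Of the 7 members with at least 200 UMIs over both libraries, 4 were at least 1.3-fold higher in stroke, against 5.02% of 4047 genes, and 0 of 7 lower, against 6.75%: Ctss at 2.72, Ctsd at 0.54, Ctsb at 0.47 and Ctsz at 0.44. Ctss passed the limit of 200 UMIs only through stroke with isotype, with 206 UMIs there and 25 in sham. Its place in this count was therefore not independent of its ratio. Lamp1 was at 0.12, and Ctsl and Lamp2 at 0.08, with intervals that hold 0. With anti-VCAM1, Ctsl was higher at 0.40 (1 of 8, against 8.72% of 7006 genes), and Ctss at -1.34 and Lgmn at -1.07 were lower (2 of 8, against 17.3%), and Ctsd at -0.38 did not reach the threshold. With anti-VLA4, 3 of 9 were lower, Ctss at -1.57, Lgmn at -0.83 and Ctsd at -0.39, against 19.1% of 7790 genes, and 0 of 9 higher, against 9.61%. Ctsl was at 0.35 (0.20 to 0.51) there, short of 1.3-fold.

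These calls were then recomputed without endothelial-like cells that held 2 or more UMIs of the 8 microglia markers, which removed 6, 19, 70 and 120 cells. The share of all genes past 1.3-fold is not given for the remaining cells, so counts there have no background beside them. Of the 7 members measurable before that removal, Ctss was the only one still past 1.3-fold in stroke over sham. It was at 1.08 (0.43 to 1.89) from 13 to 28.6 CPM. With only 24 and 60 UMIs it fell under the limit of 200 UMIs, so this was no longer a call. Ctsd went to 0.00 (-0.25 to 0.26), Ctsb to 0.28 (-0.04 to 0.60) and Ctsz to 0.18 (-0.20 to 0.56). Of the members under 200 UMIs before removal, Lgmn was at 1.28 (0.53 to 2.29) on 16 and 47 UMIs and Cd63 at 0.56 (-0.62 to 2.01), and Cd68 had 0 and 9 UMIs. Under the antibodies Ctss went to -0.07 and -0.13 and Lgmn to -0.12 and 0.11, with intervals that hold 0. Ctsl did not shrink. It went from 0.40 to 0.48 (0.31 to 0.65) under VCAM1 blockade. Under VLA4 blockade it went from 0.35 to 0.41 (0.25 to 0.58), where it then passed 1.3-fold. Its levels in the remaining cells were 159 CPM in sham and in stroke with isotype, 222 in anti-VCAM1 and 211 in anti-VLA4. Some other members did not shrink either. Cd63 under VLA4 blockade went from 0.05 to 0.60, past 1.3-fold, on 16 and 147 UMIs. That was under the limit of 200 UMIs, with an interval that holds 0. Ctsz went from 0.09 to 0.29 (0.04 to 0.57) under VLA4 blockade, and its interval under VCAM1 blockade held 0. Lamp1 stood at 0.19 (0.07 to 0.32) under VCAM1 blockade and 0.15 (0.03 to 0.28) under VLA4 blockade.

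In the unnamed arterial-gene cluster (led by Gkn3, Alpl and Stmn2) Ctsl was at 164, 123, 213 and 185 CPM, so both blockade libraries were again highest, but stroke with isotype lay below sham. This gave ratios of 0.79 (0.46 to 1.15) and 0.59 (0.26 to 0.94) for the 2 antibodies over 80 UMIs in the stroke-isotype library. Within the 3 endothelial clusters with enough cells in both libraries, however, Ctsl was between 0.06 and 0.50 with anti-VCAM1 and between -0.0046 and 0.40 with anti-VLA4. With cluster shares held at those of the stroke-isotype library the ratios were 0.22 and 0.15. Cluster shares differed between these libraries, and their part in the Ctsl level was not tested further.

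**Figure D5:**
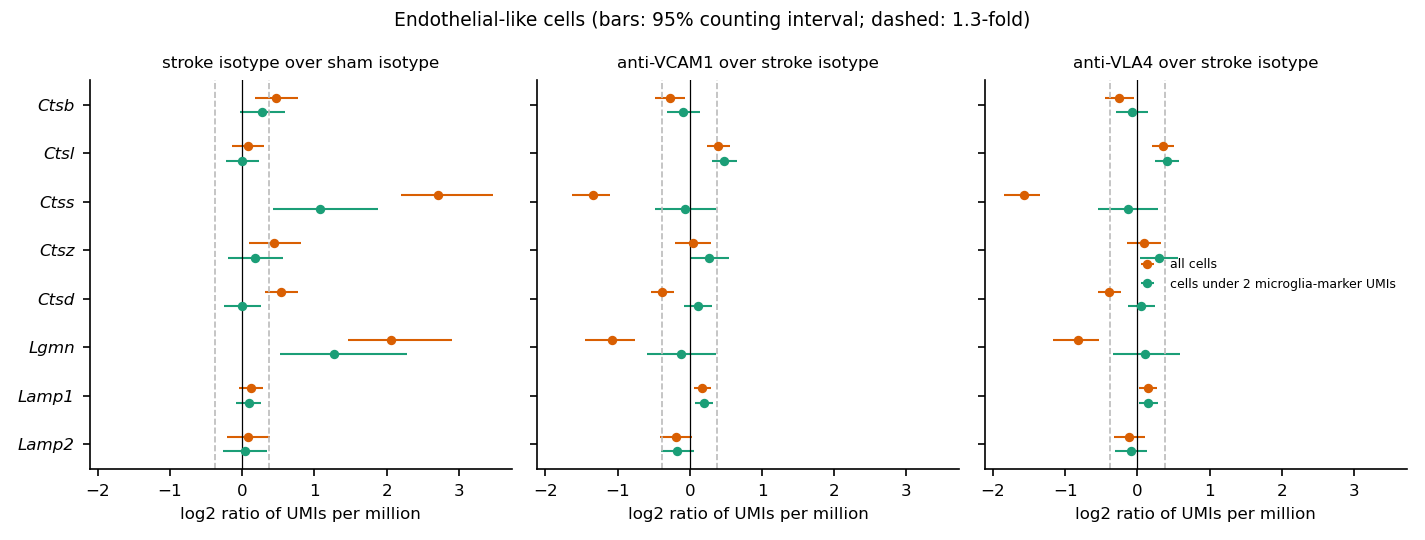
Log2 ratio of 8 members in endothelial-like cells for the 3 comparisons, over all cells and over cells with under 2 UMIs of microglia markers, with 95% counting intervals and dashed lines at 1.3-fold. The large ratios of Ctss and Lgmn shrink without those cells, while Ctsl goes from 0.40 to 0.48 and from 0.35 to 0.41 in the antibody comparisons.

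Border-macrophage-like cells were few, so only large differences could be seen. In stroke over sham Ctsd was at 0.63 (0.40 to 0.87), Ctsz at 0.44 and Ctss at 0.42, 3 of 10 members against 12.1% of 489 genes, and 0 of 10 were lower against 13.3%. Without the barcodes shared between those libraries Ctsd was at 1.24, Ctss at 0.62 and Lgmn at 0.44. With anti-VLA4 Ctsd was at -0.95 (-1.23 to -0.69), Ctsl at -0.87 (-1.33 to -0.44) and Ctss at -0.51 (-0.70 to -0.32), 3 of 10 lower against 21% of 447 genes, and 0 of 10 were higher against 17.2%. With anti-VCAM1 1 of 9 was higher against 11.6% of 396 genes, Lamp2 at 0.39, and 1 of 9 lower against 9.85%, Ctss at -0.38.

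Microglia markers in the border-macrophage-like cells summed to 3612, 3913, 4787 and 2326 CPM, and endothelial markers to 23.1, 18.9, 383 and 1662 CPM, so the anti-VLA4 library was lowest for the first and highest for the second. The part of these transcripts in the ratios was not tested. Ctsb, the most abundant member of this class in all 4 libraries, was at 0.24, -0.34 and -0.10 in the 3 comparisons. Cd63, Cd68 and Lamp1 lay between 0.00 and 0.34 in all 3, with intervals that hold 0.

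The MHC class II cluster held 109, 211, 63 and 69 cells. Its Ctsd was 657, 562, 381 and 327 CPM, which gave -0.56 (-0.78 to -0.35) under VCAM1 blockade and -0.78 (-1.02 to -0.55) under VLA4 blockade, each 1 of 10 lower, against 24.7% and 21.7% of genes. With anti-VLA4 1 of 10 was higher, Cd63 at 0.39 (0.07 to 0.71), against 6.33%, and with anti-VCAM1 0 of 10, against 10.2%. Its Lgmn was 554, 375, 335 and 461 CPM, or -0.56 in stroke over sham, again 1 of 10 lower against 18.3%, with 0 of 10 higher against 8.32%. Ctss differed by at most 0.11 in this cluster. Of 12 homeostatic microglia genes, the measurable ones that were at least 1.3-fold lower here were 6 of 10 in stroke over sham, 2 of 8 with anti-VCAM1 and 3 of 9 with anti-VLA4, with medians of -0.46, -0.26 and -0.15. The 8 microglia markers summed to 2175, 1536, 1215 and 1303 CPM in it, highest in sham, and the part of microglia transcripts in its Ctsd and Lgmn was not tested.

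In T-cell-like cells Ctss was 703, 342, 647 and 189 CPM, and the 7 microglia genes stood at a median of 22.1%, 6.38%, 13.5% and 2.91% of their microglia level, in the same order. Ctss stood at 18.4%, 8.03%, 14.5% and 4.12% of its microglia level. Without the 11, 24, 11 and 12 T-cell-like cells that held 2 or more microglia-marker UMIs, Ctss was 38.8, 135, 122 and 106 CPM and its sham value turned from highest to lowest. Ctsd kept 316, 198, 278 and 334 CPM in the remaining cells, more than any other member in them.

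Other lysosomal genes, in 7 lists, had medians between -0.05 and 0.12 in microglia-like cells after stroke. Of 28 measurable hydrolases and activators 0 were at least 1.3-fold higher, against 2.24% of all genes tested, so a count of 0 is near the background in lists of this size. Their median was 0.07, and Gm2a, the activator of ganglioside breakdown, was farthest at 0.33 (72.3 to 91.0 CPM). Of 15 subunits of the v-ATPase, the proton pump that acidifies the lysosome, 0 were higher, with a median of 0.06. Among 5 other cathepsins 0 were higher, with a median of 0.02, Ctsa being at 0.16 and Ctsh at -0.02. Among 7 regulators such as Mitf (0.05) 0 were higher, with a median of 0.03, and among 9 sorting genes 0, with a median of -0.05.

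The last lists each had a gene at least 1.3-fold higher after stroke, against 2.24% of all genes tested. Each was named for its high ratio within its list. Of 4 measurable protease inhibitors, from a list of cystatins and serpins, Cst7 was higher, from 7.62 to 32.7 CPM or 1.97 (1.62 to 2.62). Cst7 is a leading gene of the microglia cluster that made up 1.31% of these cells in sham and 5.60% in stroke with isotype. The part of that share in the Cst7 ratio was not tested. Cst3, cystatin C, was abundant at 27101 to 30206 CPM over the libraries and stood at 0.05. Of 15 other membrane genes Tmem192 was higher, from 23.4 to 34.8 CPM or 0.55 (0.26 to 0.89), and Cd9 was at 0.32. Under anti-VLA4 Tmem192 was lower at -0.44, and so was Atp6v1a, a catalytic subunit of the v-ATPase, at -0.56 (-0.67 to -0.46), from 157 to 106 CPM. Both were picked for their low ratios within their lists, and 3.21% of all 8839 genes tested were at least 1.3-fold lower there. Under anti-VCAM1 0 genes of these lists were past 1.3-fold, against 2.34% of 8427 genes higher and 1.95% lower. Atp6v1a was at -0.33 (-0.44 to -0.22) and Scarb2, a lysosomal membrane receptor, at -0.22.

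Across 14 class and library sums with at least 50 cells, the genes most like each member were sought among 12349 genes by Pearson's r of log2(CPM + 1). The points share libraries and mostly separate cell classes, so r is a description. Ctss was closest to C1qb (r = 0.996), Cd68 to Fcrls (0.996), Lgmn to Tns3 (0.997), Ctsd to Vsir (0.994) and Ctsl to Scoc (0.990). Ctsb and Cd63 were both closest to Fblim1 (0.995 and 0.991). For 3 members the closest gene was itself lysosomal: Hexa for Ctsz (0.990), Asah1 for Lamp2 (0.994) and Tpp1 for Lamp1 (0.984). Within the members, Ctsb went with Cd63 (0.985) and Ctss with Cd68 (0.979), whereas Ctss and Lamp1 were at 0.443.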

How the data were processed

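Per the file headers, the authors made the deposited UMI count matrices with Cell Ranger 7.0.1. The submitters' processing notes name Cell Ranger 6.0.0, Seurat 4.3.0.1, mm10 and GRCh38 without a role, and the build and annotation used for counting are not given in the sources used here. Members and lists were chosen with earlier results of these data known. The 4 deposited matrices held 1541, 2891, 4751 and 6361 barcodes with 10008987, 17130182, 25099141 and 34721356 UMIs.

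Cells had at least 500 UMIs, 200 genes and at most 10% mitochondrial UMIs. Scrublet (expected rate 5%) removed 11, 24, 63 and 124 cells, 0.721% to 1.96%. Cells were clustered in scanpy 1.11.5 (2000 variable genes without lysosomal genes, 30 components, 15 neighbours, leidenalg 0.10.2 at resolution 1, seed 1). Naming a cluster took 3 or more markers, each in 25% or more of its cells and with a log2 fold of 1 or more over clusters of other classes. No other class could have more markers among its top 10 genes, or as many if above 0. A second class with 5 or more such markers also left a cluster unnamed. Clusters left unnamed held 13.5% to 16.6% of cells. Rebuilt names may differ from the authors' own.

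Counts were summed per class and library. CPM have exact Poisson intervals. Log2 ratios used a pseudocount of 1 CPM, with conditional binomial intervals at 95% computed without it, and a gene was called at 1.3-fold if it had 200 UMIs over both libraries. The ratios were computed on simulated counts with known folds, drawn at random from the pooled sums of microglia-like and endothelial-like cells. Such counts hold counting error only, so the check says nothing about spread between cells, mice or libraries. The rule for named genes took all 10 members, of each other list up to 2 genes with the highest and 2 with the lowest ratio in microglia-like cells, and for each member its closest genes in r; not every value it allows is printed. Genes that lead clusters were named as they were found. Alternatives covered doublets, cell filter, naming, resolution, thinning, TMM (edgeR 4.0.16), per-cell means, pseudocount, thresholds, cluster shares and gene span (GENCODE M21). Leaving out shared barcodes, single clusters or cells with microglia-marker UMIs, and adding unnamed clusters, were chosen after seeing the data.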

Additional observations from a re-analysis of the deposited data

How the results depend on the processing

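No paired analysis was possible because each group was 1 library. Counts of members at least 1.3-fold higher or lower depended on the processing in endothelial-like and border-macrophage-like cells, and the cause was not tested. In microglia-like cells the stroke count of 1 higher became 0 at a 1.5-fold threshold, against 0.701% of 7561 genes. It became 3 without the Il1a cluster, and the anti-VCAM1 count of 0 higher became 1 (Cd63) after thinning to 1000 UMIs. The other counts in this section have no share of all genes beside them and describe only the dependence on processing. Over 14 alternatives Ctsb in stroke stayed between 0.38 and 0.53. In endothelial-like cells the stroke count of 4 higher became 1 with doublets kept, with cells named on their own markers, at resolution 0.5, at 1.5-fold and without cells holding microglia-marker UMIs, and 2 with the mean of per-cell CPM, fixed cluster shares or the arterial cluster added; Ctsz reversed to -0.025 with doublets kept. The anti-VCAM1 count of 1 higher (Ctsl) became 0 after thinning, at 1.5-fold, with fixed cluster shares and with the gene span trend removed; its 2 lower became 0 with doublets kept, on own markers and without microglia-marker UMIs, and 1 with per-cell means. There Lgmn reversed to 0.15 on own markers and Ctss to 0.17 after thinning. The anti-VLA4 count of 0 higher became 2 with doublets kept, on own markers and without microglia-marker UMIs, and 1 with TMM scaling, per-cell means or the arterial cluster added; its 3 lower became 0 with doublets kept, on own markers and without microglia-marker UMIs, and 1 with per-cell means. There Ctsd, Ctss and Lgmn reversed to 0.014, 0.078 and 0.16 with doublets kept and to 0.11, 0.16 and 0.30 on own markers; Ctsd and Lgmn reversed to 0.055 and 0.11 without microglia-marker UMIs, and Lgmn to 0.0034 after thinning. In border-macrophage-like cells the stroke count of 3 higher became 0 with doublets kept, at resolution 0.5 and with the MHC class II cluster added, and 1 with the stricter filter or 1.5-fold; its 0 lower became 1 at resolution 0.5 and 3 after thinning. Ctsd and Ctss reversed to -0.0037 and -0.0053 at resolution 0.5, and Ctss to -0.0052 with the added cluster. The anti-VCAM1 count of 1 higher became 0 with doublets kept, the stricter filter, resolution 0.5, TMM scaling, 1.5-fold and the added cluster, and 3 after thinning; its 1 lower became 0 with doublets kept, on own markers, at 1.5-fold, with the span trend removed and with the added cluster, and 2 after thinning. The anti-VLA4 count of 0 higher became 1 at resolution 0.5, after thinning and with the added cluster; its 3 lower became 1 with doublets kept, the stricter filter, resolution 0.5 and the added cluster, and 5 after thinning, where Ctsl reversed to 0.061. Fixed cluster shares were not run there, the class being 1 cluster. Border-macrophage-like cells numbered 24 to 65 per library, which limits the precision of their ratios.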
